A study of Mus musculus with 6 samples.

Results

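In all, 10 neuropeptide precursor genes of the spinal cord are described here: Tac1, Cck, Nts, Sst, Penk, Pdyn, Grp, Npy, Gal and Adcyap1. They were taken by name, as every probe set whose platform gene symbol was one of the 10. All 10 genes had 1 probe set on array type A, and Tac1 and Adcyap1 had 1 more on array type B, which made 12 probe sets of the 45137 on both types and 10 genes of 18193 with a symbol. The samples were 3 pools of mouse lumbar cord RNA, each from the segments L3 to L5 of 3 animals at postnatal day 27. Pool 1 (RNA 450) and pool 2 (RNA 500) carry the label Egr3-deficient and the remaining pool (RNA 499) the label wild type. Pool 2 and the wild-type pool share a remark on acclimatization that pool 1 lacks. Each pool was hybridised once to each array type. Allele, strain and sex of the mice are not given in the labels. Egr3 encodes a zinc finger protein induced by activity and growth factors, needed for muscle spindles, and the series title concerns genes of the fusimotor neurons that supply them.

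Neuropeptides are cut from larger precursor proteins, stored in dense-core vesicles and released mostly during strong or repeated firing, after which they act on G protein-coupled receptors. In the spinal cord their genes are transcribed mainly in interneurons of the dorsal horn, where touch, itch and pain signals from the skin are sorted. Excitatory interneurons there are known to make tachykinins, cholecystokinin, neurotensin, somatostatin and gastrin-releasing peptide, while neuropeptide Y, galanin and dynorphin are known mostly from inhibitory ones, and enkephalin from both kinds. Sensory neurons of the dorsal root ganglia also make Tac1, Gal and Adcyap1 RNA, but their cell bodies lie outside the cord.

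Of the 10 genes, 8 read above wild type on array type A in each of the pools labelled Egr3-deficient, 0 read below it in both, and Tac1 and Nts were split. None passed the test. The differences of the 10 had a median of 0.55 on the log2 scale, beside 0.11 for all 13576 probe sets that passed the filter on low signal. Pdyn was the member left out by that filter, and of the other 9, both pools exceeded wild type in 7, against 47.9% of all probe sets that passed, and both fell short of it in 0, against 34.8%. Limma with Benjamini-Hochberg adjustment called 0 of the 9 members, whose adjusted p ran from 0.161 to 0.947. It called 0.0663% of all probe sets higher and 0% lower (9 and 0), and under median centring 227 higher and 597 lower. With the muscle and liver genes left out, or with no filter, it called 0 in either direction. Of the 9 higher calls at least 7 were of listed muscle genes, which the former alternative takes out directly. At an unadjusted p under 0.05 there were 3 members (Cck, Npy and Gal), and 1077 probe sets higher and 1730 lower in all. Both pools were compared with the same wild-type pool, which has no replicate, so agreement between their signs also carries the error of that 1 pool. In cord RNA, fewer cells of a type and less RNA per cell cannot be told apart.

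**Figure D1:**
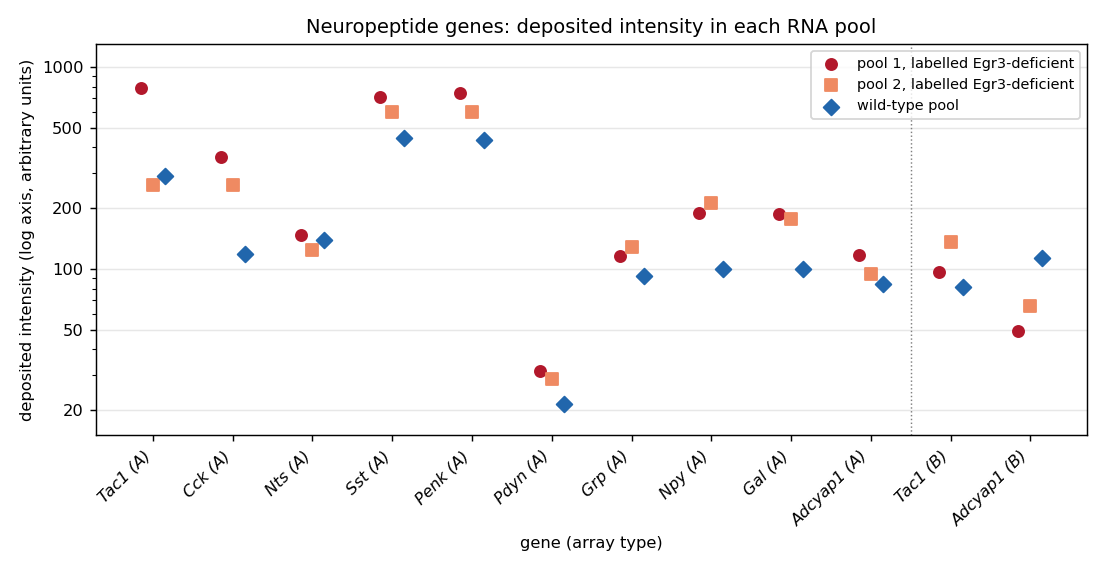
Deposited intensity of each neuropeptide probe set (log axis, arbitrary units) in pool 1 (circles), pool 2 (squares) and the wild-type pool (diamonds), 1 array per point; the dotted line separates array type A from B. For Cck, Sst, Penk, Pdyn, Grp, Npy, Gal and Adcyap1 on A both circles and squares lie above the diamond, and for Adcyap1 on B both lie below it.

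Cck showed the widest gap of the members. It encodes cholecystokinin, a peptide of excitatory dorsal horn neurons. Its deposited intensity was 359 and 261 in pools 1 and 2 against 119 in wild type. Both pools therefore read more than the wild-type pool by at least 2-fold, which held for 1 of the 9 members and for 1.2% of all probe sets that passed the filter (4.35% were at least 2-fold below in both). The log2 difference was 1.53 in pool 1 and 1.10 in pool 2, with a mean of 1.32 (SE 0.34, limma adjusted p = 0.161). Only 1.15% of the probe sets on array type A had a larger positive difference. Under median centring in place of quantile normalization Cck passed (log2 difference 1.38, adjusted p = 0.0284), and it passed under no other setting tried.

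Npy and Gal came next, both peptide genes known from inhibitory dorsal horn neurons, where neuropeptide Y in particular restrains pain and itch signals. Npy read 190 and 212 in pools 1 and 2 against 100.5 in wild type, a log2 difference of 0.98 (SE 0.32, limma adjusted p = 0.177). Gal read 188 and 176 against 100.3, a difference of 0.86 (SE 0.32, adjusted p = 0.205). In these 2 genes the pools labelled Egr3-deficient lay close to each other, 0.10 and 0.13 apart on the log2 scale, and well apart from wild type. Larger positive differences were found in 3.04% of all probe sets for Npy and in 5.19% for Gal.

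Somatostatin and the opioid peptide genes differed less. Sst, whose product damps transmitter release, read 709 and 602 against 446 (log2 difference 0.53, SE 0.27, limma adjusted p = 0.306). Penk, the enkephalin precursor, read 747 and 600 against 437 (0.58, SE 0.28, adjusted p = 0.278). Pdyn, the dynorphin precursor, read 31.2 and 28.4 against 21.4, all under the filter intensity of 36.7, and was not tested. In all 3 the order of the pools was the same, with pool 1 highest and wild type lowest, and the distance between pools 1 and 2 (0.19, 0.25 and 0.26 on the log2 scale) was smaller than or close to that between pool 2 and wild type (0.43, 0.45 and 0.25). For Sst and Penk 19.6% and 15.9% of all probe sets had a larger positive difference, so both lay inside the upper part of the distribution.

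Grp and Adcyap1 had the smallest differences among the tested genes with both pools above wild type on array type A. Grp, gastrin-releasing peptide, an itch transmitter of the dorsal horn, read 116 and 128 against 92.2 (log2 difference 0.45, SE 0.32, limma adjusted p = 0.439). Adcyap1 encodes PACAP, a peptide that raises cyclic AMP in its target cells, and read 117 and 94.4 against 84.8 on array type A (0.37, SE 0.34, adjusted p = 0.550). Its probe set on array type B went the other way, at 49.2 and 65.4 against 114 (-0.66, SE 0.68, adjusted p = 0.731). The probe sets of Adcyap1 thus disagreed in sign, and neither difference passed the test. Pool 1 on B lay under the filter intensity of 55.9 of that array type.

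Tac1 and Nts did not separate the groups on array type A. Tac1, which encodes substance P and neurokinin A, read 789 and 261 in pools 1 and 2 against 289 in wild type. Pool 1 alone stood high, 1.5 log2 units above pool 2, so the mean difference of 0.62 (SE 0.55, limma adjusted p = 0.532) rested on that pool and was -0.13 without it. The Tac1 probe set on array type B read 97 and 137 against 81.6 (0.60, SE 0.53, adjusted p = 0.679), and there pool 2 was the higher. The excess of pool 1 on A was therefore not seen on B. Nts, neurotensin, read 147 and 124 against 140, with wild type between the pools (0.045, SE 0.33, adjusted p = 0.947).

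On array type B the 2 members split, 1 above wild type in both pools (Tac1) and 1 below (Adcyap1). Among all 13507 probe sets that passed the filter there, 38.9% were above in both pools and 36.6% below. Limma called 1.02% of them higher and 0.607% lower (138 and 82), and neither member was among these. Median centring gave 119 higher calls and 22 lower ones. Only 2 higher calls and 0 lower ones were made when quantile normalization was omitted, and 0 of either on shared scaling, with no filter or with no trend. Scaled on the 100 probe sets that both array types share, Tac1 on B turned to -0.16, with the median of all probe sets on B at -0.67.

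**Figure D2:**
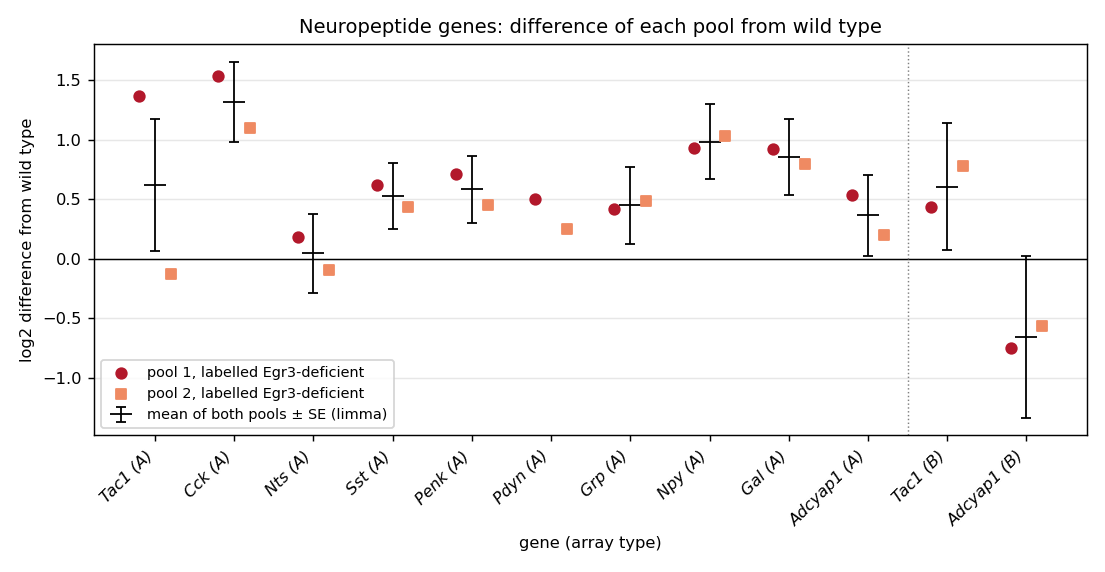
Log2 difference from the wild-type pool of pool 1 (circles) and pool 2 (squares), with the mean of both and its limma standard error (bars) for the 11 probe sets that passed the filter. Cck, Npy and Gal stand at 1.32, 0.98 and 0.86, Tac1 on A has its pools on either side of 0, and Pdyn has no bar because it was not tested.

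**Figure D3:**
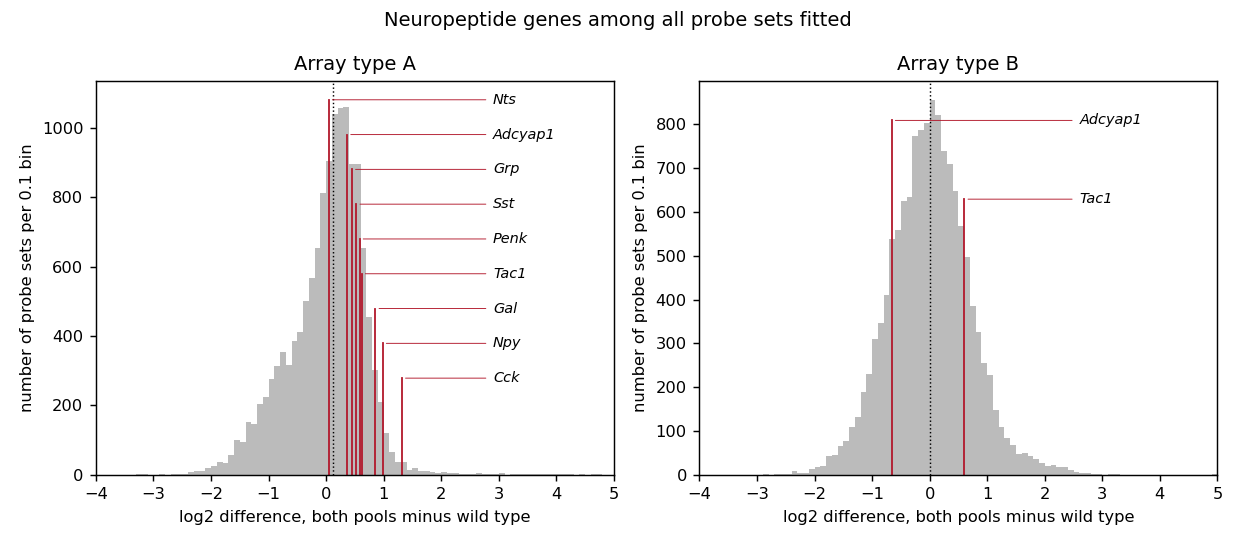
Number of probe sets per bin of 0.1 by log2 difference, all that passed the filter on array type A (13576, left) and B (13507, right), with the neuropeptide genes marked by red lines and the median by a dotted line. On A the members lie from 0.045 (Nts) to 1.32 (Cck), and all but Nts are right of the median of 0.11.

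The stretch of DNA just before the start of several of these genes is known as a classic target of cyclic AMP signalling, through the element CRE (TGACGTCA, or its shorter form TGACG), and Egr proteins are known to bind GC-rich letters such as GCGTGGGCG and GCGGGGGCG. These motifs were searched on both strands in the RefSeq promoter windows of GRCm38.p6, which run from 250 bases before to 50 after each start. Windows were found for 8 of the 10 genes (10 windows, 2 each for Pdyn and Adcyap1), and Penk and Grp were not in the table. The full CRE was found in 1 gene, Sst, and in 1.79% of all 32851 windows. The short site TGACG, which the full element contains on both strands, was found in 6 of the 8 genes (Tac1, Cck, Nts, Sst, Adcyap1 and Gal). By windows it was found in 7 of these 10 and in 20.8% of all windows. In Gal it begins 20 bases after the start and not before it. Neither set of Egr letters was in a window of these 8 genes, while they were in 0.612% and 2.91% of all windows. A match is a description of letters and not a site of binding.

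The 120 bases before the start are shown for Sst, Cck and Tac1, where the short site lies within 48 bases of the start, and for Npy, the member with the second largest difference, which has no match in them. Capitals mark TGACG or its reverse CGTCA, and each stretch is given 5′ to 3′ on the strand of the gene. They lie at chr16:23890845-23890964 (minus strand), chr9:121495695-121495814 (minus), chr6:7554941-7555060 (plus) and chr6:49822590-49822709 (plus) of GRCm38.p6.
Sst: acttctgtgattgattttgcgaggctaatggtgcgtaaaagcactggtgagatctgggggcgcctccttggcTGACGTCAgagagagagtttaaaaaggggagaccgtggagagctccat
Cck: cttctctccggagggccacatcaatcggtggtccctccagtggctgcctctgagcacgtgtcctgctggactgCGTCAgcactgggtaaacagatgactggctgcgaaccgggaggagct
Tac1: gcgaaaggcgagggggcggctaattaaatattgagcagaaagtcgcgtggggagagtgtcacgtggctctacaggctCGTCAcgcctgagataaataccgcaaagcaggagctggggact
Npy: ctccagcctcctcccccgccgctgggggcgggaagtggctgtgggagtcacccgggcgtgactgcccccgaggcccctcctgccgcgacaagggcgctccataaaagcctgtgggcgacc

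The short site begins 48 bases before the start in Sst, 47 in Cck and 43 in Tac1, and a further one 197 bases before it in Tac1. On array type A, Cck, Sst, Gal and Adcyap1 were above wild type in both pools, 0 of the 6 were below in both, and Tac1 and Nts were split. Npy, and Pdyn under the filter, have windows without the short site and were also above wild type in both pools. Of all probe sets that passed the filter, 47.9% were above in both pools and 34.8% below. A link between the motif and the readings was not tested.

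Receptors of these peptides showed no call. Of 29 listed receptor genes 28 were on array type A and 9 passed its filter. Of these 6 lay above wild type and 2 below it in both pools, against 47.9% and 34.8% of all probe sets. Tacr2, among the 6, read 38.3 and 58.6 against 34.1 in wild type, under the filter intensity of 36.7. Npy5r, among the 2, read 26.9 in pool 1, also under it. Both passed through their other pools, so their place in the count is not independent of their difference. The median of the 9 was 0.16. Cckbr, the cholecystokinin receptor of the nervous system, read 111 and 133 against 61.8 (log2 difference 0.93, SE 0.33, limma adjusted p = 0.194), the same direction as its ligand gene. Its other probe set on A was dimmer, at 31.1 and 33.4 against 14.7. Adcyap1r1, the PACAP receptor, read 2044 and 1478 against 795 on array type B (0.86, adjusted p = 0.259), and its probe sets on A differed by 0.30 and 0.35. The astrocyte neurotensin receptor Ntsr2 read 2382 and 2117 against 1587 (0.33, adjusted p = 0.372), beside an Nts reading that did not separate the groups.

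Most listed receptors on A did not pass the filter. There the substance P receptor gene Tacr1 read 4.51 and 6.01 against 3.19, the neuropeptide Y receptor gene Npy2r 1.6 and 2.66 against 5.09, and the brightest probe set of the mu opioid receptor gene Oprm1 5.3 and 27.1 against 6.44. These 3, chosen after their values were seen, were under the filter and were not tested. Tacr2, a neurokinin receptor gene, differed by 0.46 on A, and Npy5r, a neuropeptide Y receptor gene, by -0.39. On B, where 4 receptors passed the filter, the kappa opioid receptor gene Oprk1 read 99.4 and 59.6 against 168 (-0.87, adjusted p = 0.503), while its probe set on A differed by 0.059. The somatostatin receptor gene Sstr4 differed by 0.56 on B and Tacr3 by -0.056, and both signs turned under another scaling.

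Genes that process and store peptide precursors went in both directions. Of 18 listed genes 14 passed the filter on array type A, with 4 above wild type in both pools, 8 below, 0 called and a median of -0.21. Of all probe sets that passed there, 47.9% were above and 34.8% below. Qpct, among the 8, read 22.6 in pool 1, under the filter intensity of 36.7. It passed through the other pools, so its place in the count is not independent of its difference. On B 4 passed, 3 above and 1 below, against 38.9% and 36.6% of all probe sets. Vgf, a precursor of dense-core vesicle peptides whose gene is induced by nerve growth factor and activity, was called there. Vgf read 1784 and 1258 against 460, and rose by 1.51 on the log2 scale (SE 0.39, limma adjusted p = 0.0314). At least 2-fold above wild type in both pools were 4.27% of all probe sets on B, and 1.8% were as far below. Its call did not hold under 5 of the alternatives, where its adjusted p ran up to 0.455, but its difference was positive in all 12, from 1.08 to 1.84.

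Within the processing list the named genes lay on both sides of wild type. Pcsk1n, the proSAAS precursor that restrains prohormone convertase, read 1625 and 1276 against 724 (log2 difference 0.90, SE 0.24, limma adjusted p = 0.161), and Chga, chromogranin A, read 683 and 655 against 435 (0.60). Chgb, chromogranin B, was on the other side at 615 and 840 against 1339 (SE 0.29, adjusted p = 0.166), as were Scg2 (-0.57) and Scg3 (-0.77), both secretogranins. Cadps, which primes dense-core vesicles for release, read 541 and 577 against 1025 (-0.92, adjusted p = 0.164). All 5 probe sets of the carboxypeptidase gene Cpd on A were below wild type in both pools. The brightest read 124 and 236 against 439 (-1.25, limma adjusted p = 0.175). Both Cpd probe sets on B were also below. The brighter read 15.9 and 67.0 against 137 (-1.43, adjusted p = 0.455), with pool 1 under the filter intensity of 55.9. It passed through the other pools, so its place in the count on B is not independent of its difference. The dimmer did not pass the filter. Hid1 and Ptprn2, both genes of dense-core vesicle biogenesis, differed by 0.17 and 0.22 on B. Chga, Scg2 and Scg3 were chosen after their values were seen.

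Peptidases and the other peptide precursors had no call either. Of 11 peptidase genes 9 passed the filter on A, with 4 above wild type in both pools, 4 below and a median of 0.038. Of all probe sets that passed there, 47.9% were above and 34.8% below. Mme, neprilysin, which breaks down enkephalin and substance P, read 43.0 and 46.4 against 165 (log2 difference -1.49, SE 0.33, limma adjusted p = 0.161), and its dimmer probe set was also below, at 13.7 and 31.4 against 53.4. Mme passed under median centring (adjusted p = 0.00680). Thop1, an oligopeptidase of neurotensin and other peptides, read 92.7 and 88.1 against 45.4 (0.90, adjusted p = 0.199). Ece1 (0.74) and Dpp3 (0.33) on A and Prep (0.92) on B, all peptidase genes, were also above wild type in both pools. Ece1 was 0.44 without pool 1 and 1.05 without pool 2. Prep was split on A (0.038), and on B its difference was 0.18 on shared scaling.

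Of 29 other peptide precursor genes 22 were on array type A and 10 passed its filter, with 8 above wild type in both pools, 0 below, 0 called and a median of 0.38. Tac2, the neurokinin B gene of excitatory dorsal horn neurons, read 446 and 392 against 255 (0.70, SE 0.29, limma adjusted p = 0.235). Apln (0.41), Nmu (0.42) and Npff (0.36) had both pools above wild type by less. Nmu and Npff read 32.5 and 32.6 in wild type, under the filter intensity, and passed through the other pools, so their place in the count is not independent of their difference. Cartpt, which was named once its values were known, read 207 and 86.4 in pools 1 and 2 against 93.0 in wild type, the same order as Tac1 on A. On B the 2 that passed were above wild type in both pools, as were 38.9% of all probe sets. Crh (0.65) passed only through pool 2, at 46.6 and 95.1 against 46.1, and was 0.97 without pool 1 and 0.30 without pool 2. Adm (0.35) was 0.51 and 0.18, and both signs turned on shared scaling.

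**Figure D4:**
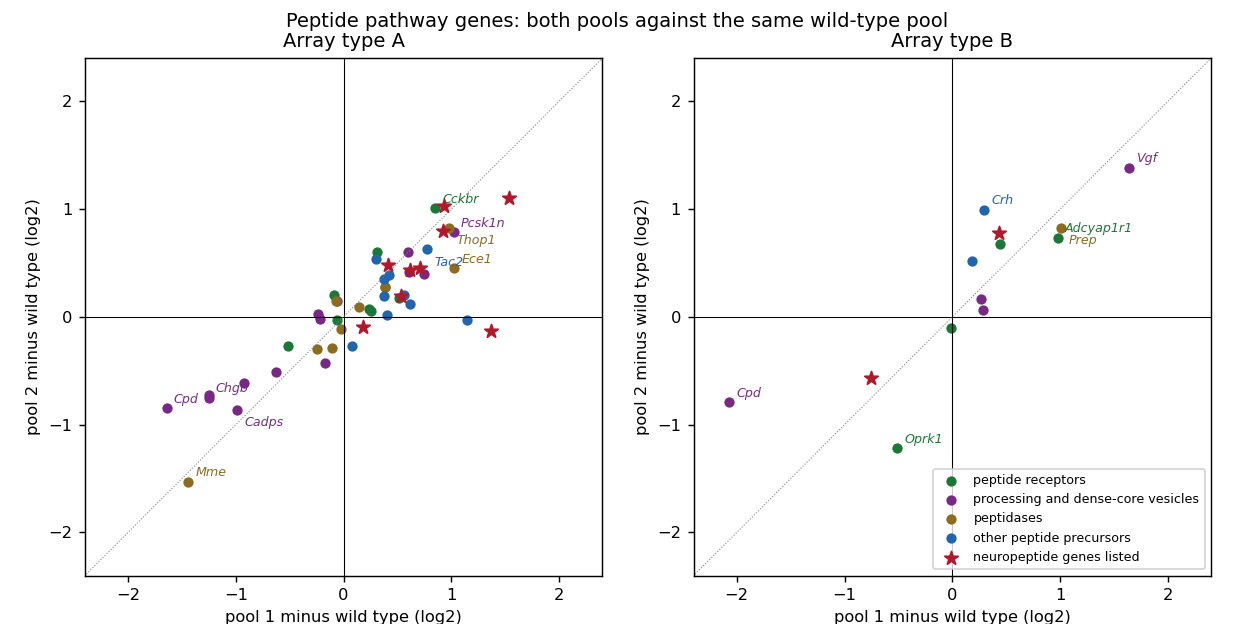
Log2 difference from wild type of pool 1 (horizontal) and pool 2 (vertical) for the genes of 4 peptide pathway lists (coloured points, 1 per gene) and the neuropeptide genes (red stars) that passed the filter on array type A (left) and B (right). Points on the diagonal have equal differences in both pools; because both axes share the wild-type pool, points also spread along it when only that pool varies. Cck is the star farthest to the upper right on A, and Chgb, Cadps, Cpd and Mme lie at the lower left.

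Other measurements moved with these groups. On array type A the 11 skeletal muscle markers, all above wild type in both pools, summed to 4456 and 5704 against 180, and the 5 liver markers measured summed to 254 and 7348 against 104. Of 10 pan-neuronal genes on A, 6 were below wild type in both pools and 3 above, with 0 called (sums 15126 and 16518 against 19999). Of all probe sets that passed there, 34.8% were below and 47.9% above. On B, 3 of 5 pan-neuronal genes were below and 1 above, against 36.6% and 38.9% of all probe sets. Their sums on B were higher than wild type (21959 and 23292 against 20632). The counts use normalized differences and the sums deposited intensities. Nefl on B, counted below (-0.66 and -0.40), read 11605.5 and 10839 against 10018.7 as deposited. On A, Slc17a6, the vesicular glutamate transporter of excitatory interneurons, read 247 and 333 against 567 in its brighter probe set. Of the same list Calb2 read 1154 and 969 against 699 on A, and Lmx1b 354 and 336 against 204 on B. Of the excitatory dorsal horn markers that passed on A, 3 of 6 were above and 3 below, and of the inhibitory ones 3 and 1 of 4. Reln, among the 3 below, differed by -0.024. Gad2, the inhibitory marker below, read 35.3 in pool 1, under the filter intensity of 36.7, and passed through the other pools. On B 2 of 4 excitatory markers were above and 1 below, and of the inhibitory ones 1 and 1 of 2. The median of the members on A was 0.59 with the muscle and liver genes left out, beside 0.58 with them.

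The labelled tissue was checked by its markers. All 6 thoracic and lumbar Hox genes on array type A passed the filter, with sums of 1315, 1443 and 1311. None of the 4 sensory neuron markers on A did, with sums of 45.4 and 28.3 against 134 in wild type. On B Trpv1 passed, at 89.4 and 54.0 against 81.5. P2rx3 on B did not, at 21.4 and 5.66 against 93.5 in its brighter probe set. Some peptide genes known from the hypothalamus, which a cord should lack, nonetheless gave a signal: Oxt, oxytocin, read 180 and 198 against 98.2 on A (log2 difference 0.93), and Pmch 166 and 132 against 59.1 on B (1.30). Hcrt, the orexin gene, lay below wild type in both pools, at 42.0 and 48.3 against 64.1 on A (-0.28). Of activity-induced genes that passed the filter on A, 5 of 6 exceeded wild type in both pools, against 47.9% of all probe sets. Fos was among them, at 368 and 278 against 101. Arc, also among them, read 62.1 and 45.4 against 24.6 in wild type, under the filter intensity of 36.7. Arc passed through the other pools, so its place in the count is not independent of its difference. Gapdh control probe sets from the 3′ end over those from the 5′ end gave 0.858 and 0.975 against 0.734 on A, and those of 18S rRNA 2.27 and 1.08 against 0.0493. On B Gapdh gave 0.923 and 0.805 against 0.755, and 18S rRNA 1.43 and 0.945 against 0.0605. Beta-actin gave 1.37 and 1.48 against 1.36 on A and 1.40 and 1.47 against 1.52 on B. The part of these in the neuropeptide readings was not tested. Egr3 itself was not below wild type in both pools on either type (log2 differences 0.013 on A and 1.03 on B), and whether its probe sets lie in the deleted part is unknown, so the pools are called by their labels.

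**Figure D5:**
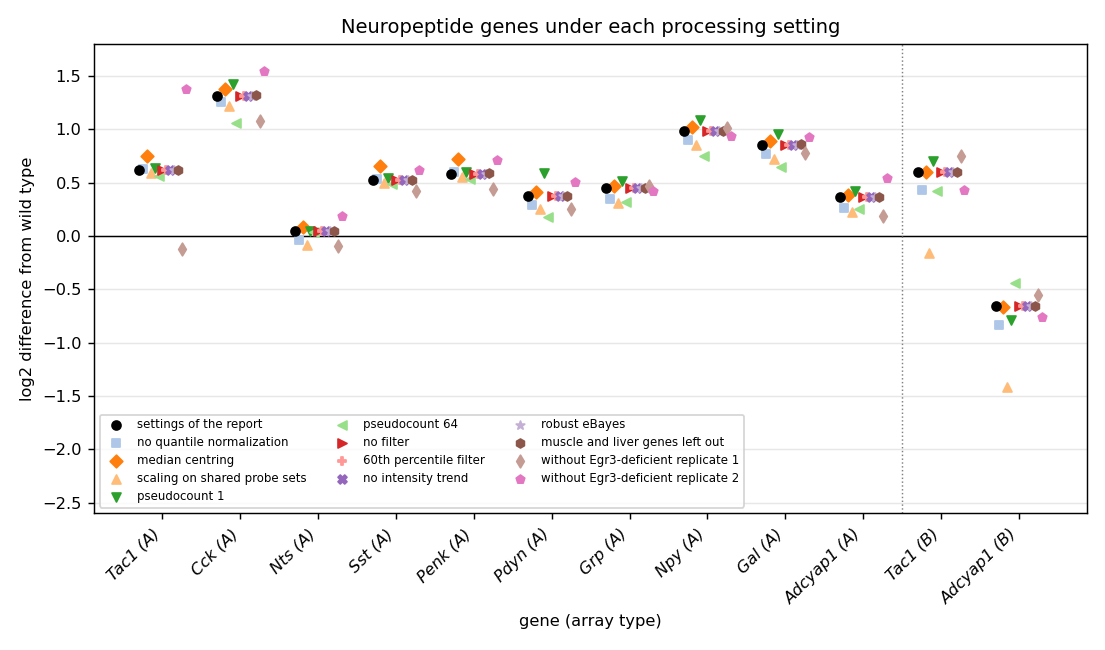
Log2 difference of each neuropeptide probe set under the settings of the report (black circles) and 12 alternatives (coloured markers), for array type A and, right of the dotted line, B. Cck, Npy, Gal, Sst, Penk, Pdyn, Grp and Adcyap1 on A stay above 0 under all of them, while Nts and Tac1 cross it, and Adcyap1 on B stays below it.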

How the data were processed

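The deposited values are linear intensities, 1 for each probe set of an array. Their mean without the top and bottom 2% lay from 149.972 to 149.987, so the arrays had been scaled to a common level. The sources used here do not give the summarising program. Deposited intensity had a median of 50.3 to 60.1 over the arrays of type A and of 76.2 to 91.8 over those of type B, lowest in pool 1 on either. The number of arrays limits the precision.

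Each array type was analysed alone. After removal of 64 control probe sets, values became log2(intensity + 16), were quantile normalized, and probe sets with a mean at or above the 40th percentile were fitted with limma 3.58.1 in R 4.3.3 (eBayes with an intensity trend, Benjamini-Hochberg within the array type, adjusted p threshold 0.05). Differences are on that scale, which understates changes of dim genes. The 2 Egr3-deficient pools left 1 residual degree of freedom, and the lone wild-type pool is taken to share their spread. The eBayes prior (6.54 degrees of freedom for A, 52.3 for B) outweighs each probe set's own spread, so SEs and p-values reflect mostly the prior. P-values hold no measured spread between wild-type pools, as the 2 pools labelled Egr3-deficient give the only spread within a group.

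All member probe sets were described. Of pathway lists, called genes and up to 4 others per list and array type with the largest smaller-of-2 difference were named. The members and lists were chosen with earlier results of these data known. A gene in a list was represented by its brightest probe set. The fit was checked on simulated data. There, added changes of 1 log2 unit were called in 8.1% of cases on A and 11.1% on B. Changes of 2 log2 units were called in 95.8% and 56.8%, and of 4 in 100% and 97.4%. The simulated spread depended on intensity alone and was the same in all 3 pools. These rates need therefore not hold for the measured arrays. On A the muscle genes Myh4 (log2 difference 3.27, limma adjusted p = 0.155) and Actn3 (3.05, adjusted p = 0.0516) were not called. A member without a call can thus still differ by 1 log2 unit or more. Symbols were taken through the gene identifier from the RefSeq table of GRCm38.p6 where it matched, for 20351 of 20380 named probe sets on A and 14486 of 14661 on B.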

Additional observations from a re-analysis of the deposited data

How the results depend on the processing

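Alternatives were no quantile normalization, median centring, scaling on 100 shared probe sets, pseudocounts of 1 and 64, no filter, a 60th percentile filter, robust eBayes, no trend, joint adjustment of A and B, muscle and liver genes left out, and each Egr3-deficient pool left out, where 1 array against 1 gives values with no test. The count of members called on A moved to 1 (Cck) under median centring, where 227 probe sets were called higher and 597 lower in all against 9 and 0, and was 0 otherwise. On B it was 0 throughout. Calls in the pathway lists were recounted only under median centring and without quantile normalization. The count of peptidases called on A moved from 0 to 1 (Mme) under the former, and the 1 call among processing genes on B became 0 under both. The median of the members on A ran from 0.44 to 0.72. On shared scaling the median on B moved from -0.028 to -0.79 with the median of all probe sets, and the count above wild type in both pools on B moved to 0. Neither member on B passed the 60th percentile filter.

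Signs turned for Nts on A without quantile normalization (-0.040), on shared scaling (-0.082) and without pool 1 (-0.093, and 0.19 without pool 2), for Tac1 on A without pool 1 (-0.13, and 1.37 without pool 2), for Tac1 (-0.16), Sstr4 (-0.088), Ptprn2 (-0.090), Hid1 (-0.54), Adm (-0.36) and Crh (-0.16) on B on shared scaling, for Tacr3 on B without quantile normalization (0.0086) and under median centring (0.18), and for the peptidase median on A without quantile normalization (-0.064). The cause was not tested. Vgf lost its call under median centring, without quantile normalization, on shared scaling, with no filter and without trend. Each member had 1 probe set per array type, so a mean over probe sets leaves the members as they are. It moved the receptor median on A from 0.16 to 0.33 and the processing median on A from -0.21 to -0.11 (-0.093 under median centring). No paired analysis was possible because the labels give no replicate numbers shared between the groups and there is 1 wild-type pool.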
